A study of Homo sapiens with 6 samples.

Results

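The m6A readers are proteins that recognise RNA carrying N6-methyladenosine (m6A), a methyl mark on adenosine. The 10 genes described are YTHDF1, YTHDF2, YTHDF3, YTHDC1, YTHDC2, IGF2BP1, IGF2BP2, IGF2BP3, HNRNPA2B1 and HNRNPC. They were taken by name from a table of 58174 genes, and all 10 had a value above 0 in both groups. The study sequenced RNA of cells labelled AGS, an established human gastric adenocarcinoma cell line, with stomach as tissue, to compare expression with and without depletion of FTO, an enzyme that removes m6A. There were 3 si-NC libraries, titled for a control siRNA and labelled wild type, and 3 si-FTO libraries, titled for an siRNA against FTO but labelled FTO-/-. The paper describes siRNA as well as lentiviral depletion of FTO and does not state which was used for sequencing. Whether the label FTO-/- stands for a knockout was not stated, and neither was whether the libraries of a group came from separate cultures. Expression was given as TPM, a share of all transcripts corrected for their length, as 1 mean for each group.

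Methyl marks are placed on mRNA by a complex built around METTL3 and METTL14 and are removed by FTO and ALKBH5. YTHDF and YTHDC proteins hold the methylated base in the pocket of their YTH domain, the IGF2BP proteins bind RNA through KH domains and protect bound transcripts from decay, and HNRNPA2B1 and HNRNPC are nuclear proteins of pre-mRNA processing. IGF2BP1 and IGF2BP3 are known as oncofetal genes, high in the embryo, low in most adult tissues and expressed again in many tumours, those of the stomach included.

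FTO itself stood at 33.1 TPM in si-NC against 7.27 TPM in si-FTO, 4.56-fold lower. Because only group means were used, no value below carries an error, a number of replicates or a test, and the depth of the libraries is unknown. In bulk RNA, fewer cells of a type and less RNA per cell cannot be told apart. Differences are given as the log2 ratio of mean TPM, si-FTO over si-NC, after adding 1 TPM to each mean, which understates differences of low genes. Where a pair of values is given, that of si-NC precedes that of si-FTO. A gene was called past the fold when this log2 ratio was at least 1 in size, and was compared when its mean reached 0.5 TPM in at least 1 group. A gene given as exactly 0.0001 TPM is described as listed at 0, and no fold is given for it.

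The labelled tissue was checked against a list of epithelial and gastric markers, and several of them were absent. The list also holds CDX1 and CDX2, transcription factors of the intestine, whose level does not mark gastric epithelium. TFF1, a gastric peptide gene, was listed at 0 in both groups, as was CDX1. KRT19 was listed at 0 in si-NC and had 0.130 TPM in si-FTO, and TFF2 was listed at 0 in si-NC and had 0.0895 TPM in si-FTO. EPCAM, an epithelial adhesion gene, had 1.22 TPM in si-NC against 0.113 TPM in si-FTO, and CDH1, the E-cadherin gene, had 3.67 and 0.685 TPM. MUC5AC and MUC6, the gastric mucins, stayed below 0.5 TPM in both groups. Of 17 such markers 11 were compared, and 5 of them were lower and 5 higher past the fold. The keratin genes KRT8 and KRT18 were the main part of the higher side, at 10.8 and 52.1 TPM in si-NC against 3139 and 1851 TPM in si-FTO, joined by ELF3, MUC1 and CLDN4. GATA4, CDX2 and SOX2, at 37.0, 18.1 and 13.2 TPM in si-NC, went to a listed 0 in si-FTO, and GATA6 went from 20.3 to 2.54 TPM. The summed mean TPM of the list was 158 in si-NC, with KRT18 the most abundant, and 5121 in si-FTO, with KRT8 the most abundant.

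Markers of other cell types also differed between the groups. Of 11 neuronal-type markers 10 were compared, with 6 lower and 1 higher past the fold, and their summed mean TPM was 469 in si-NC, led by UCHL1, and 33.3 in si-FTO, led by ENO2. UCHL1 had 303 and 0.0204 TPM, and the neurofilament genes NEFL and NEFM, at 62.7 and 49.9 TPM in si-NC, were at a listed 0 in si-FTO. GAP43, INA and SYP were the other lower genes, NEFH was the higher gene at 0.242 against 13.0 TPM, and STMN2 was listed at 0 in both groups. Of 9 mesenchymal markers 8 were compared, with 5 lower (CDH2, SNAI2, TWIST1, FN1 and ZEB2) and COL1A1 higher past the fold, and 4 lower after median-ratio scaling. Their summed mean TPM was 625 in si-NC against 826 in si-FTO, led by VIM in both groups, and COL1A2 was the list's gene at 0 in si-FTO. The difference between the groups thus reached well beyond the m6A genes, and the part of these markers in the results on the readers was not tested. Of the epithelial and gastric markers, TFF1, TFF2, KRT19, MUC5AC and MUC6 stayed below 0.5 TPM in both groups. KRT18, GATA4, GATA6, SOX2 and KRT8 had 52.1, 37.0, 20.3, 13.2 and 10.8 TPM in si-NC. Markers near 0 thus stood beside expressed ones under the label AGS, and whether either group holds AGS cells was not tested. Whether the libraries of both groups hold the same cells was not tested either, so a difference between the cells and an effect of FTO depletion cannot be told apart in any si-FTO over si-NC value given here.

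Against this background, 2 of the 10 readers, IGF2BP1 and IGF2BP2, were lower past the fold in si-FTO and 0 were higher. Among the 20493 genes compared, 3492 (17.0%) were lower and 2340 (11.4%) were higher past the fold, so the count of readers was near the share of all genes. Among the 12967 genes of at least 5 TPM, where all 10 readers belonged, the shares were 17.4% lower and 13.3% higher. On the log2 scale the readers had a median ratio of -0.26, beside -0.20 over all genes compared, of which 59.9% lay below 0. The median-ratio shift between the groups was -0.21 on the log2 scale. With it removed, 6 readers lay below 0 in place of 9, since YTHDF2, YTHDF3 and HNRNPA2B1 changed sides of 0. The log2 ratios are therefore also given after subtracting the median of all genes.

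**Figure D1:**
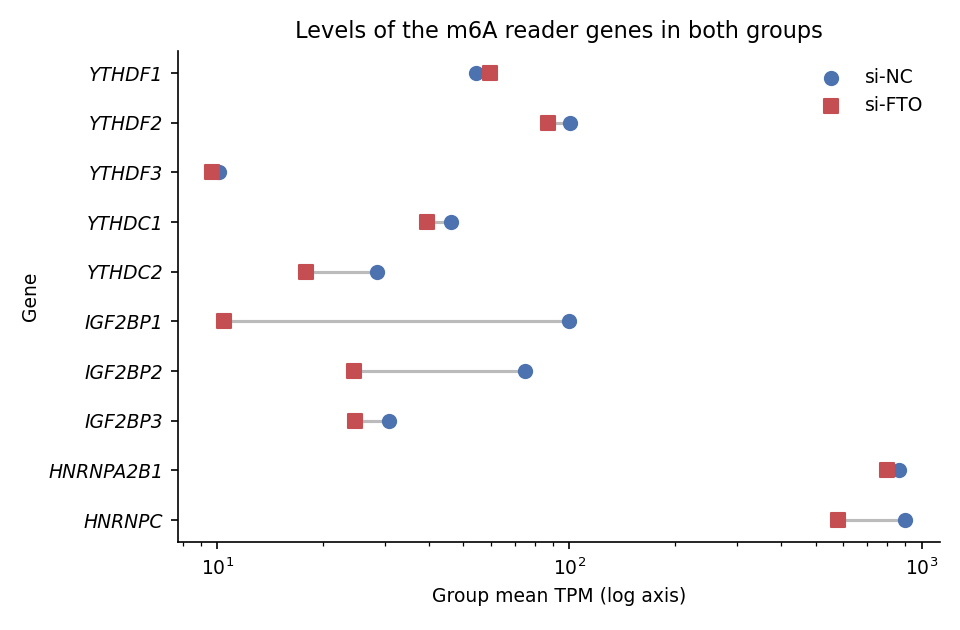
Group mean TPM of the 10 reader genes on a log axis, with si-NC as circles and si-FTO as squares joined by a line for each gene. The widest gaps are those of IGF2BP1, from 99.4 to 10.4 TPM, and IGF2BP2, from 75.0 to 24.4 TPM.

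The readers spanned a wide range of levels. HNRNPC and HNRNPA2B1 were the most abundant in both groups, with HNRNPC ahead in si-NC and HNRNPA2B1 ahead in si-FTO, and YTHDF3 was the lowest in both. Between these, the order in si-NC was YTHDF2, IGF2BP1, IGF2BP2, YTHDF1, YTHDC1, IGF2BP3 and YTHDC2. In si-FTO it was YTHDF2, YTHDF1, YTHDC1, IGF2BP3, IGF2BP2, YTHDC2 and IGF2BP1. IGF2BP1 thus went from place 4 to place 9 of the 10 readers. Neighbours in these orders could not be compared with their spread, which is unknown.

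IGF2BP1 and IGF2BP2 differed most between the groups. IGF2BP1 (ENSG00000159217), which binds and stabilises mRNAs such as that of MYC, lies on chromosome 17 from 47074747 to 47133507 on the plus strand of GRCh37, the build of all positions given, and stood at 99.4 TPM in si-NC against 10.4 TPM in si-FTO. It was 9.52-fold lower in si-FTO, with a log2 ratio of -3.13, or -2.93 from the median of all genes. Of the 20493 genes compared, 487 (2.38%) had a lower ratio. IGF2BP2 (ENSG00000073792), a paralog expressed more widely in adult tissues, lies on the minus strand of chromosome 3 from 185360918 to 185542830 and had 75.0 and 24.4 TPM. It was 3.07-fold lower, with a log2 ratio of -1.58, or -1.38 from the median of all genes, and 8.81% of the genes compared had a lower ratio. IGF2BP3 (ENSG00000136231), the other oncofetal paralog, on the minus strand of chromosome 7 from 23349828 to 23510110, had 30.7 and 24.6 TPM. Its log2 ratio of -0.31 was close to the median of all genes, from which it differed by -0.11.

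The family as a whole was lower and changed its composition. The summed mean TPM of the IGF2BP genes was 205 in si-NC against 59.5 in si-FTO, 3.45-fold lower. IGF2BP1 made up 48.5% of this sum in si-NC and 17.6% in si-FTO. The share of IGF2BP2 was 36.6% in si-NC against 41.0% in si-FTO, and that of IGF2BP3 was 15.0% and 41.4%. The most abundant family member was therefore IGF2BP1 in si-NC, and in si-FTO IGF2BP3 and IGF2BP2 stood at nearly the same level. There were 3.24 IGF2BP1 transcripts for each IGF2BP3 transcript in si-NC and 0.424 in si-FTO. For IGF2BP2 over IGF2BP3 the ratio was 2.44 in si-NC against 0.992 in si-FTO. Such ratios within a group do not depend on how the groups are scaled to each other.

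**Figure D2:**
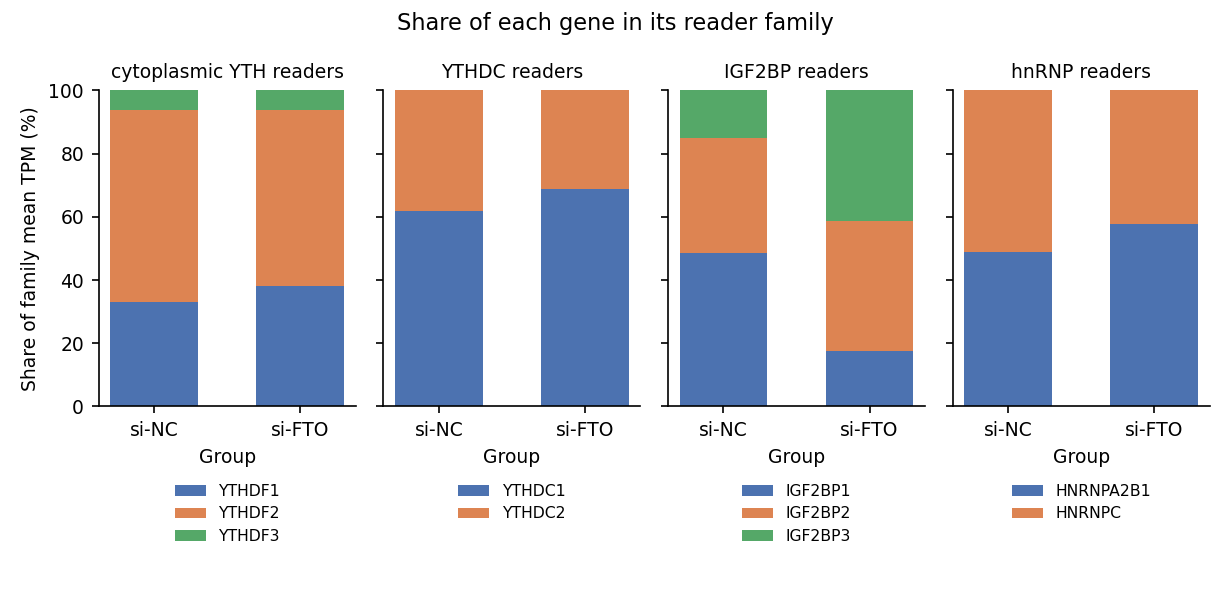
Share of each gene in the summed mean TPM of its reader family, in percent, with a bar for each group. The share of IGF2BP1 is 48.5% in si-NC against 17.6% in si-FTO.

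The 3′ UTRs of the IGF2BP mRNAs are known for matches to let-7, a microRNA family of differentiated cells that pairs with its targets through a seed, bases 2 to 8 from its 5′ end. These matches were looked at after the expression values had been seen, and let-7 RNA itself was not analysed here. The RefSeq table of mature microRNAs (GRCh38.p14) holds 11 human names with the seed of let-7a, which is in capitals in the line for it below. The motif searched was CTACCTC, the 7 bases that pair with this seed, on the sense strand of the annotated 3′ UTR only. It is in capitals in the other lines, each of which gives 23 bases, 5′ to 3′, of the GRCh37 genome on the strand of the gene.
hsa-let-7a-5p: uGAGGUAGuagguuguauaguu
IGF2BP1 match 1: tgtgtgcgaagtaaaCTACCTCa
IGF2BP1 match 2: cagcagtgctagtaaCTACCTCa
IGF2BP1 match 3: gtataaatggattaaCTACCTCa
IGF2BP1 match 4: tcacttttgttttatCTACCTCt
IGF2BP2 match 1: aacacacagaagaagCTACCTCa
IGF2BP3 match 1: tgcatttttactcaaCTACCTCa
The IGF2BP1 matches lie at chr17:47128423-47128445, chr17:47131060-47131082, chr17:47131714-47131736 and chr17:47132359-47132381 on the plus strand, all in the 3′ UTR of the canonical transcript. The IGF2BP2 match lies at chr3:185362008-185362030 and the IGF2BP3 match at chr7:23351414-23351436, both on the minus strand in the 3′ UTRs of the canonical transcripts.

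IGF2BP1 had 4 matches in a 3′ UTR of 6701 bases, or 0.597 per kilobase. IGF2BP2 and IGF2BP3 had 1 match each in 2401 and 2153 bases, or 0.416 and 0.464 per kilobase. The 3′ UTRs of the other 7 readers had 0 matches. Over all genes compared, 1540 of the 14071 with an annotated 3′ UTR (10.9%) held the motif, with a median log2 ratio of -0.32 beside -0.21 for the 12531 genes without it. Of all 14071 genes, 19.1% were lower and 12.0% higher past the fold. The groups that follow are nested. The median was -0.34 for the 183 genes with 2 or more matches, close to that for 1 or more. At 3 or more matches it was -0.89 for 33 genes, of which 15 were lower and 0 higher past the fold. The 12 genes with 4 or more are part of those 33, and IGF2BP1 is 1 of them. For those 12 genes the median was -2.65, with 9 lower and 0 higher past the fold. Besides IGF2BP1, those 9 included LIN28B, HMGA2, LIMD2, IGDCC3, HIC2, TRIM71 and NR6A1. HEMK1, SMC1A and ZBTB37 also had at least 4 matches, and their log2 ratios were -0.43, -0.33 and -0.18.

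Genes with matches also had longer 3′ UTRs, with a median of 3038 bases for 1 or more matches and 6701 bases for 3 or more, against 1118 bases without. Among genes with a 3′ UTR of at least 4000 bases, the 579 with a match and the 1259 without had nearly the same median log2 ratio, -0.30 and -0.29, and nearly the same share lower past the fold, 23.5% and 23.4%. The share higher past the fold was 6.04% with a match and 10.3% without. Genes with 3 or more matches were not compared at matched length, and the part of 3′ UTR length was not tested for them. Among the 9 lower genes with 4 or more matches, 3′ UTR lengths included 1782 bases for IGDCC3 and 2999 bases for HMGA2. A match of letters is a description and shows no binding.

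**Figure D3:**
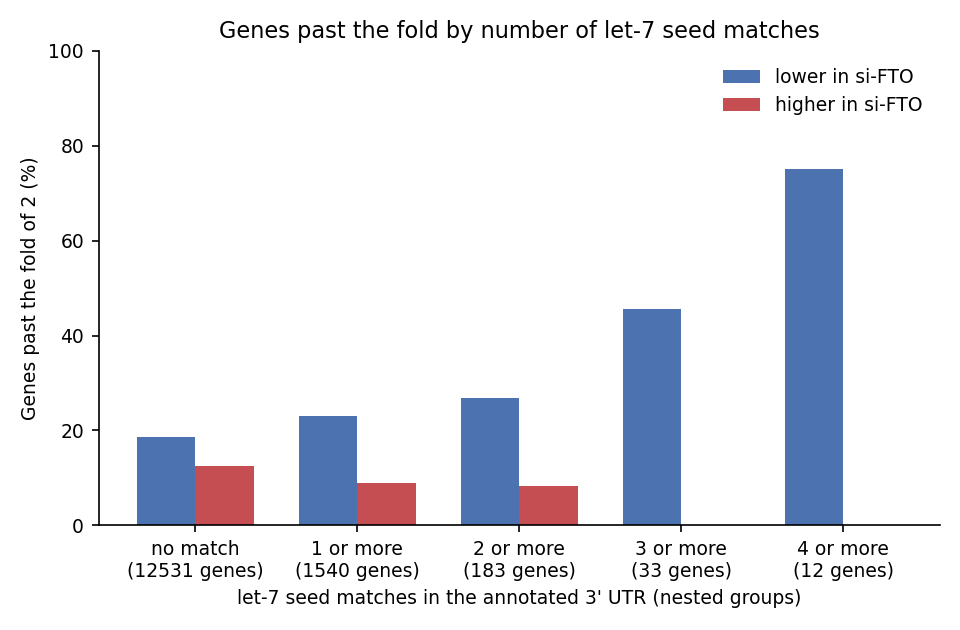
Percentage of genes lower or higher past the fold in si-FTO, for genes without a let-7 seed match in the 3′ UTR and for nested groups with at least 1, 2, 3 or 4 matches. The share lower past the fold is 18.6% without a match and 75.0% for the 12 genes with 4 or more. The share higher is 12.4% and 0%. IGF2BP1 is among these 12 genes, and the matches were looked at after its value had been seen.

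The YTHDF genes, whose cytoplasmic proteins bring methylated mRNAs to decay and translation, differed little between the groups. YTHDF1, on chromosome 20 from 61826781 to 61847491 on the minus strand, had 54.2 TPM in si-NC against 59.5 TPM in si-FTO, and its log2 ratio of 0.13 was the highest of the readers. YTHDF2, which recruits deadenylases to methylated mRNA and lies on the plus strand of chromosome 1 from 29063133 to 29096287, had 100.5 and 86.8 TPM. YTHDF3, a partner of both, had 10.1 and 9.69 TPM. After subtracting the median of all genes these log2 ratios were 0.33 for YTHDF1, -0.01 for YTHDF2 and 0.14 for YTHDF3, so that YTHDF2 moved with the typical gene and YTHDF3 changed sides of 0. The summed mean TPM of the family was 165 in si-NC against 156 in si-FTO. YTHDF2 made up 61.0% of it in si-NC against 55.6% in si-FTO, and YTHDF1 32.9% and 38.2%, with 1.85 and 1.46 YTHDF2 transcripts for each YTHDF1 transcript.

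The YTHDC genes differed from each other. YTHDC1, a nuclear reader that acts in splicing and export, on the minus strand of chromosome 4 from 69176105 to 69215808, had 46.1 and 39.5 TPM, and its log2 ratio of -0.22 differed from the median of all genes by -0.01. YTHDC2, an RNA helicase known best from meiosis, on the plus strand of chromosome 5 from 112849391 to 112930982, had 28.3 and 17.9 TPM. Its log2 ratio was -0.63, or -0.43 from the median of all genes, and 29.1% of the genes compared had a lower ratio. YTHDC2 therefore passed a log2 threshold of 0.5 and not that of 1, and after median-ratio scaling, at -0.43, it passed neither. The number of YTHDC1 transcripts for each YTHDC2 transcript was 1.63 in si-NC against 2.21 in si-FTO.

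The hnRNP readers were more than 5 times as abundant as any YTH or IGF2BP gene. HNRNPC, which binds uridine-rich stretches that m6A makes accessible, lies on the minus strand of chromosome 14 from 21677295 to 21737653 and had 898 and 580 TPM, with a log2 ratio of -0.63, or -0.43 from the median of all genes. HNRNPA2B1, which takes part in splicing and microRNA processing, lies on the minus strand of chromosome 7 from 26210771 to 26241149 and had 863 and 798 TPM, and its log2 ratio of -0.11 was 0.09 from the median of all genes and turned to 0.10 after median-ratio scaling. There were 1.04 HNRNPC transcripts for each HNRNPA2B1 transcript in si-NC and 0.728 in si-FTO. HNRNPC therefore went from the more to the less abundant of the pair. The other 23 hnRNP genes gave 0 calls in either direction, with log2 ratios from -0.86 for HNRNPAB to 0.75 for PCBP1. HNRNPD at -0.79 and HNRNPH2 at 0.73 came next, and the median of the list was -0.10, or 0.11 after median-ratio scaling. The log2 ratio of HNRNPC lay within this range.

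Enzymes that write and erase m6A were compared with the readers. All 9 writers had a log2 ratio below 0, also after median-ratio scaling, and 0 passed the fold. Their median was -0.54, beside -0.26 for the readers and -0.20 over all genes. The largest differences were those of METTL14, from 11.2 to 6.13 TPM, and VIRMA, a scaffold of the writer complex, from 35.8 to 20.9 TPM. METTL3, the catalytic subunit, had 107 TPM in si-NC against 81.4 TPM in si-FTO. Of the erasers FTO was lower past the fold, and ALKBH5, with 128 and 67.5 TPM, had a log2 ratio of -0.91.

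Proteins that work with the readers showed few calls. Of the 12 genes of the CCR4-NOT deadenylase list, which YTHDF proteins recruit, CNOT3 was lower past the fold, from 85.1 to 31.8 TPM, and the median log2 ratio was -0.59. The list of RNase P/MRP and RIDA, the cleavage arm of YTHDF2, holds 12 genes, UPF1 among them. It gave 0 calls and a median of -0.46, with POP7 at -0.94, RPP30 at -0.93 and RPP25 at 0.90. After median-ratio scaling 1 gene of that list was higher past the fold. Of the 9 partners of YTHDC1 and YTHDC2, 8 were compared, again with 0 calls. KHDRBS1 at -0.46 and SRSF7 at -0.30 were lowest, NXF1 at 0.14 and SRSF10 at 0.10 highest, and the median of -0.02 became 0.15 after median-ratio scaling. Of 12 other proteins proposed to bind m6A, EIF3H, a translation initiation subunit, was the call, higher past the fold at 127 and 296 TPM. The median of that list was -0.09, or 0.12 after median-ratio scaling.

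RNAs reported elsewhere to be bound by IGF2BP proteins differed in both directions. Of 16 such RNAs 15 were compared, 5 were lower and 5 higher past the fold, and the median log2 ratio was 0.23. After median-ratio scaling 6 were higher. Among the lower RNAs, LIN28B, whose protein blocks let-7 maturation, went from 41.2 to 0.00563 TPM. HMGA2, a chromatin gene of embryonic cells, went from 59.6 to 0.488 TPM. The other lower RNAs were GLI1, MAPK4 and BTRC, the last with 24.4 and 9.73 TPM. Among the higher RNAs, H19, an imprinted noncoding RNA, went from 1.34 to 7791 TPM. CD44, a cell adhesion gene, had 2.22 and 94.5 TPM, and PEG10, an imprinted gene, had 0.262 and 24.9 TPM. MYC had 20.7 and 63.2 TPM. In si-FTO, where IGF2BP1 was lower, MYC, an RNA that IGF2BP1 is known to stabilise, was higher, and LIN28B and HMGA2 were lower. A link of these RNAs to the level of IGF2BP1 was not tested. ACTB, another bound RNA, had 2522 and 3722 TPM.

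IGF2BP1, IGF2BP2 and IGF2BP3 also belong to a list of oncofetal RNA-binding genes and let-7 antagonists. Of its 10 genes 9 were compared, with 6 lower and 1 higher past the fold and a median log2 ratio of -2.63. The 6 were IGF2BP1, IGF2BP2, LIN28B, HMGA2, MSI1 and TRIM71, of which HMGA2 is a chromatin gene. MSI1, an RNA-binding gene of progenitor cells, had 30.0 TPM in si-NC, and TRIM71, a let-7 target of the early embryo, had 5.17 TPM, and both were listed at 0 in si-FTO. MSI2, a paralog of MSI1, was the higher gene, with 32.8 and 72.3 TPM. IGF2BP3 and DIS3L2, an exonuclease acting on let-7 precursors, did not pass the fold, and LIN28A was listed at 0 in both groups. LIN28B and HMGA2 each had 4 let-7 seed matches in the 3′ UTR, TRIM71 had 6, and MSI1, MSI2 and DIS3L2 had 0. LIN28B, HMGA2, TRIM71 and IGF2BP1 are the same genes as those named above among the 12 with 4 or more matches.

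**Figure D4:**
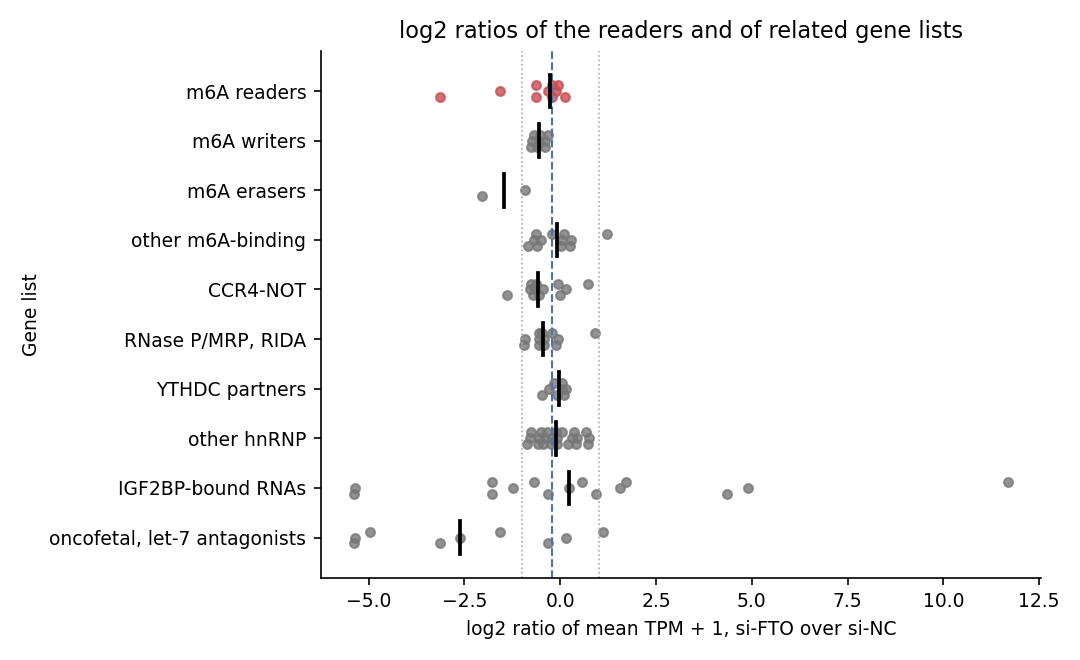
log2 ratio of mean TPM + 1, si-FTO over si-NC, for each gene compared in the readers and in related lists, with black bars at the list medians, dotted lines at -1 and 1 and a dashed line at the median of all genes, -0.20. Among the lists drawn, the oncofetal list, which holds the IGF2BP genes, has the lowest median, -2.63, and the median of the readers is -0.26, which median-ratio scaling moved to -0.06.

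The genes around each reader on its chromosome were compared, because the rule that named the readers did not use position. Over all genes compared, 17.0% were lower and 11.4% higher past the fold. Of the 20 nearest genes of IGF2BP1, 10 on each side, 6 were lower and 0 higher past the fold, and their median log2 ratio was -0.59. Only 1 of them had a lower ratio than IGF2BP1, LINC03057, which had 13.5 TPM in si-NC and was listed at 0 in si-FTO. The 20 nearest genes of IGF2BP2 had a median of -0.15, with 2 lower and 2 higher past the fold, and 0 of them had a lower ratio than IGF2BP2. The largest difference there was the higher level of ETV5, at 0.443 against 13.3 TPM. The median around IGF2BP3 was -0.06, with 4 lower and 2 higher past the fold and GPNMB the largest difference, at 0.668 against 13.6 TPM. Of the 6 lower neighbours of IGF2BP1, 2 overlap it, ENSG00000250838 and ENSG00000251550, and their values are uncertain. The medians moved with the number of neighbours taken. With 5 on each side they were -0.47 for IGF2BP1, -0.36 for IGF2BP2 and -0.02 for IGF2BP3, and with 25 they were -0.80, -0.01 and -0.19.

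Around the other readers the medians ran from -0.48 at HNRNPA2B1, with 8 of 20 neighbours lower and GSDME higher with a log2 ratio of 3.80, to 0.04 at YTHDF1, where 5 neighbours on each side gave -0.11. The lower neighbours of HNRNPA2B1 include FAM221A and NPY, which also count among those of IGF2BP3. They also include NFE2L3, which overlaps HNRNPA2B1. YTHDC1 had a median of -0.46 and 7 lower neighbours, among them AMBN at 3.93 TPM in si-NC but listed at 0 in si-FTO. YTHDF3, HNRNPC, YTHDC2 and YTHDF2 had medians between -0.22 and -0.15. With 5 and 25 neighbours on each side the median was -0.73 and -0.83 at HNRNPA2B1 and -0.48 and -0.42 at YTHDF3, and with 25 it was -0.71 at YTHDC1 and -0.31 at YTHDC2. Among the 20 nearest genes of HNRNPC, SALL2 had 48.4 TPM in si-NC but was listed at 0 in si-FTO, and among those of YTHDC2 the same held for CDO1, at 10.7 TPM in si-NC. Among those of YTHDF2 and YTHDF3, RAB42 and KRT8P3 differed the other way, with log2 ratios of 5.59 and 4.77. KRT8P3 is a pseudogene copy of KRT8, which was itself far higher in si-FTO, and whether reads of KRT8 were counted for it was not tested, so its value is uncertain.

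**Figure D5:**
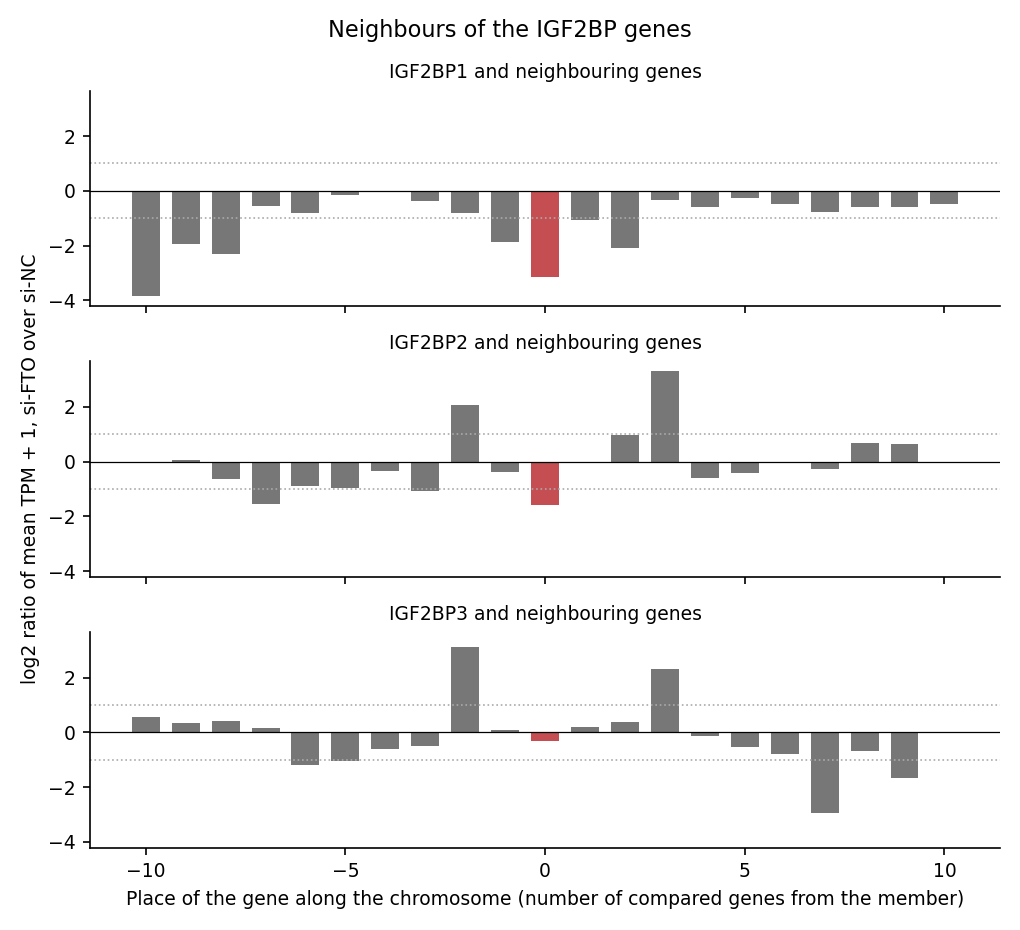
log2 ratio of mean TPM + 1, si-FTO over si-NC, of IGF2BP1, IGF2BP2 and IGF2BP3 (red) and of the 10 nearest compared genes on each side (grey), in order along the chromosome, with dotted lines at -1 and 1. The median of the neighbours is -0.59 for IGF2BP1, -0.15 for IGF2BP2 and -0.06 for IGF2BP3, and moved with the number of neighbours taken.

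Some reads of the readers could have been shared with overlapping genes or copies, and the strand setting of the counting was not given. ENSG00000250838, a noncoding gene that overlaps the start of IGF2BP1 on the opposite strand, had 2.95 TPM in si-NC against 0.0936 TPM in si-FTO, and the pseudogene ENSG00000251550 inside IGF2BP1 had 1.61 and 0.234 TPM. These values are uncertain, and both were low beside the 99.4 TPM of IGF2BP1. IGF2BP2-AS1 stayed below 0.1 TPM in both groups. MALSU1, which overlaps the end of IGF2BP3 on the opposite strand, had 30.1 and 32.4 TPM, about the level of IGF2BP3, whose value is therefore uncertain. The pseudogene ENSG00000232627 and SNORD65, both on the strand opposite IGF2BP3, had less than 1 TPM in both groups. HNRNPA2B1 is overlapped on the opposite strand by NFE2L3, with 28.0 and 6.51 TPM, and CBX3, with 129 and 134 TPM.

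Copies of HNRNPC were the largest source of shared sequence. Of the 50-base words of its transcript, 15.6% also occurred in other genes, most of them in the pseudogene HNRNPCP2, which had 18.4 and 12.0 TPM. The 11 copies named after HNRNPC summed to 2.28% of its level in si-NC and 2.32% in si-FTO, so their level relative to HNRNPC was nearly the same in both groups. YTHDF2 shared 13.1% of its words with YTHDF2P1, which had 0.538 and 0.292 TPM, IGF2BP3 shared 9.42%, IGF2BP2 7.35% and IGF2BP1 0.412%. The other readers shared 0 words with other genes, and 0 words were shared between readers. YTHDF3-DT, a transcript divergent from YTHDF3, had 1.43 and 1.70 TPM. The copies YTHDF1P1 and YTHDF3P1 and the other genes inside IGF2BP1 (ENSG00000251461, RNU6-826P), IGF2BP2 (MIR548AQ) and IGF2BP3 (RNU7-143P) were listed at 0 in both groups.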

How the data were processed

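RNA of cells labelled AGS was sequenced by the authors in 3 si-NC and 3 si-FTO libraries, prepared with a stranded kit. The authors deposited TPM as 1 mean for each group over 58174 genes. According to the paper's methods the reads were mapped to hg19 with Bowtie and quantified with RSEM, whereas the submitters' processing notes name HISAT2 and hg19; which of these made the values is not given in the sources used here. The deposited table also holds the authors' log2 ratio, p-value and q-value for each gene, and a shorter deposited table holds a selection of its rows. None of these columns was used. TPM keeps no depth, so no interval was given.

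From the group means, the log2 ratio of mean TPM, si-FTO over si-NC, was computed with a pseudocount of 1, for genes with at least 0.5 TPM in at least 1 group, and called past the fold at 1 in size. A value of 0.0001 was read as 0. Gene lists were described by their counts and medians beside those of all genes compared, with no test. The genes named are the 10 readers, FTO, antisense genes, pseudogenes and copies of a reader, the genes of each list past the fold or otherwise the 2 that differed most on either side, and the neighbour with the largest difference. Any further gene was picked once values had been seen, and some genes that these criteria take are not reported here. The readers and the lists were chosen with earlier results of these data known. The alternatives were a pseudocount of 0.1 or none, median-ratio scaling, quantile normalization, no filter or a filter at 5 TPM, a log2 threshold of 0.5, and 5 or 25 neighbours on each side. The let-7 matches, with their 8-base, scaled and long 3′ UTR versions, and the alternatives for the lists of RNA-binding regulators and let-7 host transcripts were chosen after seeing the data.

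Symbols matched 55726 of the identifiers. Coordinates, 3′ UTRs and transcript words were read from GRCh37 and a GENCODE annotation carried over to that build, with the canonical transcript of each gene, and the let-7 sequence from RefSeq. Python 3.11.15 with numpy 2.4.6, pandas 2.3.3 and matplotlib 3.10.9 was used, and the calculations were tested on simulated data.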

Additional observations from a re-analysis of the deposited data

How the results depend on the processing

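No paired analysis was possible because the deposited table holds 1 mean for each group, and for the same reason no library could be left out in turn. IGF2BP1 ranged from -3.25 to -2.94 on the log2 scale and IGF2BP2 from -1.62 to -1.38 over the pseudocounts and scalings, and both stayed past the fold. YTHDC2 ranged from -0.66 to -0.43 and HNRNPC from -0.68 to -0.42. YTHDF2 ranged from -0.23 to 0.0003, YTHDF3 from -0.06 to 0.14 and HNRNPA2B1 from -0.20 to 0.10, and quantile normalization gave 0.0833 for YTHDF3, so the directions of these readers depend on the scaling. Of the 10 readers, 6 lay below 0 after median-ratio scaling and 8 after quantile normalization.

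Of all genes, 5147 were lower past the fold with a pseudocount of 0.1 and 5348 with none, for which the cause was not tested, and 2254 with a filter at 5 TPM, which compares fewer genes. The pseudocount of 0.1 and none gave 3280 and 3400 higher genes. A log2 threshold of 0.5 gave 7160 lower and 4326 higher genes and 4 lower readers, IGF2BP1, IGF2BP2, YTHDC2 and HNRNPC, of which YTHDC2 and HNRNPC no longer passed 0.5 after median-ratio scaling, at -0.43 and -0.42. Median-ratio scaling gave 2979 lower and 2839 higher genes and quantile normalization 2902 and 2803, a smaller excess of lower genes than 3492 against 2340. After median-ratio scaling the medians of the other m6A-binding proteins, the YTHDC partners and the other hnRNP genes moved above 0, 1 gene of RNase P/MRP and RIDA was higher past the fold, and 4 mesenchymal markers in place of 5 were lower. With a pseudocount of 0.1 the medians of the oncofetal list and of the gastric and neuronal-type markers were -3.24, -2.26 and -4.35. For the 5 let-7 host transcripts, alternatives chosen after seeing the data gave 3 higher past the fold with median-ratio scaling and 4 with a pseudocount of 0.1, in place of 2, and medians of 1.15 and 2.47 in place of 0.97. The medians of the neighbours moved with their number, and that around YTHDF1 was -0.11 with 5 neighbours on each side and 0.11 with 25. Since the spread between libraries and the depth are unknown, the precision of every value is unknown.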

Other observations

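Of 30 tissue-restricted splicing and RNA-binding regulators, a list chosen after the data were seen, 21 were compared, and 10 were lower and 3 higher past the fold, with a median log2 ratio of -0.97. After median-ratio scaling 9 were lower and 4 higher, with a median of -0.77. Before this scaling, 17.0% of all genes compared were lower and 11.4% higher past the fold. Lists of genes chosen for their relation to the readers differed. Past the fold were 0 of 23 other hnRNP genes and 1 of 12 other proposed m6A-binding proteins. In the oncofetal list, which holds the IGF2BP genes and the chromatin gene HMGA2, 6 were lower and 1 higher of 9 compared. The lists were not tested against each other. Several of the 10 lower genes are known from neurons. ELAVL2 had 8.63 TPM in si-NC against 0.0356 TPM in si-FTO, RBFOX3 had 8.34 and 0.143 TPM, and CELF4 had 2.81 and 0.172 TPM. NOVA1 with 8.33 TPM, CELF2 with 8.85 TPM and NOVA2 with 2.68 TPM in si-NC went to a listed 0 in si-FTO. KHDRBS3, a paralog of the YTHDC1 partner KHDRBS1, had 35.4 and 0.319 TPM, and RBM20 and RBM24, regulators of muscle splicing, had 14.6 and 4.28 TPM in si-NC against 0.695 and 0.0307 TPM in si-FTO. CELF5 was the other lower gene. ELAVL3, ELAVL4, CELF3, RBFOX1 and SRRM4, also known from neurons, stayed below 0.5 TPM in both groups and were not compared. PTBP2, with a log2 ratio of -0.74, did not pass the fold. The higher genes were ESRP2, an epithelial splicing regulator, at 2.44 against 26.0 TPM, MBNL2 at 6.66 against 24.7 TPM and RBM47 at 4.86 against 16.3 TPM.

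Host transcripts of let-7 genes, a list of 5 also chosen after the data were seen, all had a log2 ratio above 0, with a median of 0.97, and 2 were higher past the fold. After median-ratio scaling the median was 1.15 and 3 were higher, and with a pseudocount of 0.1 these values were 2.47 and 4, so the count depends on the processing. MIR100HG was listed at 0 in si-NC and had 6.07 TPM in si-FTO, and MIRLET7BHG had 0.474 and 3.07 TPM. MIR99AHG had 2.67 and 6.18 TPM and MIRLET7A1HG 1.48 and 2.65 TPM, and MIRLET7DHG was listed at 0 in si-NC and had 0.822 TPM in si-FTO. MIRLET7A1HG and MIRLET7DHG overlap in position, so their values are uncertain and they are not separate loci.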
